A study of Mus musculus with 12 samples.

Results

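The 10 cytosolic heat shock and small chaperone genes described here, Hspb1, Hspb8, Cryab, Hspa1a, Hspa1b, Hspa8, Hsp90aa1, Dnajb1, Hsph1 and Bag3, were taken by symbol from a table of 17922 genes, and all 10 passed the filter on low counts in each comparison. RNA had been sequenced from primary rib chondrocytes (cartilage cells freed with collagenase and cultured overnight) of 12 mouse samples in 4 groups of 3. The LDH knockout (Col2-Cre, both Ldha alleles floxed, 1 of 2 Ldhb alleles deleted) addressed reduced glycolysis and was taken at postnatal day 5 (P5) with its littermate controls. The Acly knockout (Col2-Cre, both Acly alleles floxed) addressed reduced cytoplasmic acetyl-CoA and was taken before birth, at E18.5, with its littermate controls. The strain of all groups was C57BL/6-dominant mixed. Col2-Cre acts in cartilage cells, and any cell of a culture in which it did not act keeps the floxed gene. RNA levels in bulk cultures cannot tell fewer cells of a type from less RNA per cell. Whether controls carried Cre or floxed alleles, and whether a sample was 1 mouse or a pool, is not given in the sources used here, so p-values measure the spread between these samples, which may be technical.

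Cytosolic heat shock proteins keep other proteins folded. HSP70 proteins (Hspa8, Hspa1a, Hspa1b) bind unfolded chains and use ATP to release them, J-domain proteins such as Dnajb1 deliver clients to them, and Hsph1 and Bag3 act as exchange factors that reset the HSP70 cycle. Hsp90aa1 encodes the inducible HSP90, and Hspb1, Hspb8 and Cryab encode small heat shock proteins, which hold unfolded clients without ATP. Many of these genes are switched on by heat shock factor 1 under heat or other protein stress. Hspb8 and Bag3 proteins are known to form a complex that passes damaged proteins to autophagy, a pathway best studied in muscle.

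Libraries held 26362407 to 28154143 expected counts. Ldha was at 0.103 of its control level in the LDH knockout (log2 fold change -3.29) and Acly at 0.377 in the Acly knockout (-1.41). Ldhb was not lower in the LDH knockout, at 14.2 to 16.4 CPM against 11.3 to 12.3 CPM in controls. Its log2 fold change of 0.37 did not pass (adjusted p 0.115 by edgeR). Acly knockout replicate 2 lay apart on the first principal component, at 24.4 against 42.7 to 51.3 for the other 5 samples of its age. Y-linked RNA was at most 0.0367 CPM (read counts scaled to library size) in the 3 LDH knockouts, 93.0 and 102 CPM in LDH controls 1 and 2, and 0.590 CPM in control 3. It also differed within both Acly groups. All 8 chondrocyte markers were detected in each group, with a summed level of 8427 CPM or more in each sample.

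The promoters are shown first because heat shock genes are known for a common control element and because 2 members are near copies. Heat shock factors bind inverted repeats of the letters GAA. A pair of repeats, GAANNTTC or TTCNNGAA (each its own reverse complement, so both strands are covered), was searched from 250 bases before to 50 bases after each start in the RefSeq promoter table (GRCm38.p6). It lies in the windows of 6 of the 7 matched members, Hspb8, Hspb1, Hsph1, Bag3, Hspa1a and Hspa1b. Counted by gene in the same way, it lies in 17% of all 27025 genes, and in 15.1% of all 32851 windows. The triple repeat, GAANNTTCNNGAA or TTCNNGAANNTTC, lies only in Hsph1 among these 7, and in 0.662% of all genes (0.603% of windows). Dnajb1 had neither, and Cryab, Hspa8 and Hsp90aa1 were not matched. Matches are descriptions, not binding sites. Each is printed with its flanks, in the 5′ to 3′ direction of the gene, with the repeat in capitals.
Hspb8: gaagccaggaGAAGTTTCtaggctcgcg
Hspb1: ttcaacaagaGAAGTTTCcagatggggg
Hspb1: gatgggggcaGAACCTTCctggccccgc
Hsph1: ggtagaatctTTCTCGAAggctcgagaa
Hsph1: atgctgcagaTTCTGGAAAGTTCt
Bag3: gatgggaccaGAAGTTTC
Hspa1a: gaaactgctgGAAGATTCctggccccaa
Hspa1b: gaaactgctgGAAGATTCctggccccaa
The Hspb8 run lies on the minus strand at chr5:116422845-116422872, with its repeat 3 bases into the transcript. The Hspb1 runs lie on the plus strand at chr5:135887792-135887819 and chr5:135887812-135887839, with repeats 117 and 97 bases before the start. The Hsph1 runs lie on the minus strand at chr5:149636352-149636379 and chr5:149636287-149636310, and the Bag3 run on the plus strand at chr7:128523615-128523632. The Hspa1a and Hspa1b runs, at chr17:34972243-34972270 and chr17:34959325-34959352 on the minus strand, have the same letters.

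Hspa1a and Hspa1b, the stress-inducible HSP70 pair, are alike far beyond that element. Over the 250 bases before the start they differ at 3 positions. The last 120 of these bases, at chr17:34972157-34972276 and chr17:34959239-34959358, differ at 1 position, shown in capitals.
Hspa1a: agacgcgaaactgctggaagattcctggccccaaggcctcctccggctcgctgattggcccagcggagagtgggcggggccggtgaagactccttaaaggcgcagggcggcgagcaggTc
Hspa1b: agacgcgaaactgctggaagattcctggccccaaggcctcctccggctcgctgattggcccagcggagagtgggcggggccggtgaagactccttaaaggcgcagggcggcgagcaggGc
Of the 50-base stretches of the Hspa1a transcript, 58.8% occur letter for letter in that of Hspa1b, and 0 occur in that of Hspa8. The split of reads between both genes is therefore uncertain, and their summed counts are given beside each fold change. An annotated gene, Gm20481, overlaps Hspa1a on the opposite strand, and Hspb2 overlaps Cryab in the same way. The use of strand in the counting is not given in the sources used here, so reads of these partners cannot be told apart.

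Levels between genes are compared as TPM, a unit that corrects for transcript length. Hspa8, the constitutive HSP70, was the most abundant member in all 4 groups and made up 65.7% to 73.1% of the members' summed TPM in each sample. In LDH controls it was at 2529.7 ± 189.6 TPM (SD, n = 3), followed by Hsp90aa1 at 577 ± 28.2, Bag3 at 189.6 ± 3.13 and Hsph1 at 74.9 ± 2.03 TPM. Hspb8 was next at 54.8 ± 11.3 TPM, then Dnajb1 at 32.0 ± 1.29, and Cryab and Hspb1, whose sample values overlapped, stood at 20.4 ± 4.65 and 15.4 ± 1.75 TPM. Hspa1b at 11.9 ± 1.37 and Hspa1a at 6.83 ± 1.21 TPM were the lowest as listed, and their sum, which does not depend on the split of reads, was 18.7 ± 2.53 TPM.

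The first 3 places were the same in every group, and those 3 genes did not overlap with each other or with the fourth. The middle of the order differed. In LDH knockouts Hspb8 stood at 27.2 ± 1.63 TPM, overlapping Dnajb1 at 27.3 ± 1.36, and below Cryab at 32.1 ± 2.12. In Acly controls Hspb8 (73.4 ± 8.94), Cryab (67.0 ± 3.63), Hspb1 (63.9 ± 11.2) and Hsph1 (59.2 ± 1.67 TPM) each overlapped the next in rank, as they did in Acly knockouts in the order Cryab, Hspb8, Hspb1, Hsph1.

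**Figure D1:**
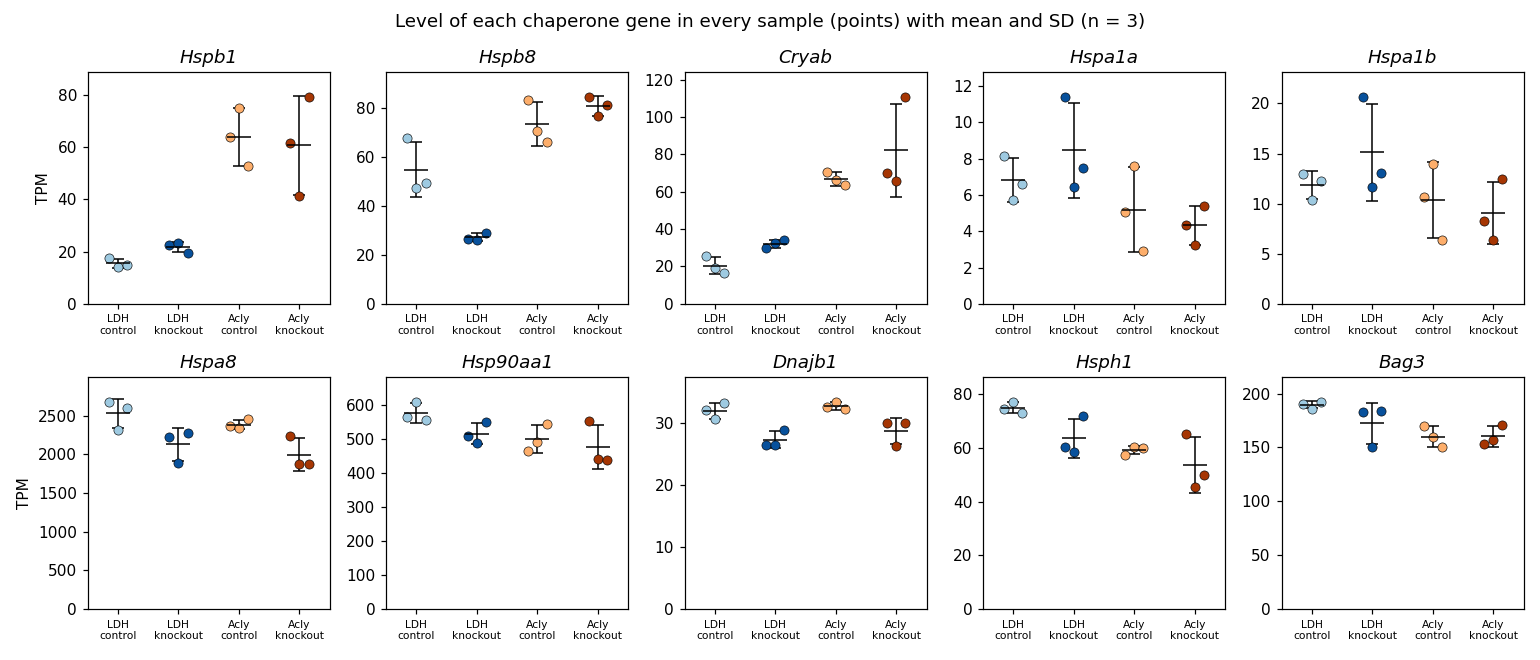
TPM of each of the 10 chaperone genes (linear axis from 0) in LDH controls, LDH knockouts, Acly controls and Acly knockouts. Points are samples, and bars are the mean and SD (n = 3). The 3 LDH knockouts sit at 26.1 to 29.1 TPM for Hspb8, below all 9 other samples, and Hspb1 and Cryab are higher in all Acly-set samples than in all LDH-set samples.

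The observed spread of the heat-inducible pair between replicates varied from group to group, with 3 samples in each and no test of spread. The coefficient of variation of Hspa1a in TPM was 45.4% in Acly controls and 31.0% in LDH knockouts, against 2.56% and 9.94% for Hspa8. In LDH controls it was 17.7% for Hspa1a and 11.5% for Hspa1b, below Hspb8 (20.5%) and Cryab (22.8%). In Acly knockouts Hspb1 (31.2%) and Cryab (30.3%) varied about as much as the pair (24.9% and 34.3%). Summed Hspa1a and Hspa1b counts were 47.5 CPM in LDH knockout replicate 1 but 27.5 and 29.8 CPM in replicates 2 and 3. In Acly controls they were 23.5, 29.9 and 13.5 CPM. Relative to its group mean, LDH control replicate 2 was higher for 1 of the 10 members, and control replicates 1 and 3 for 6 and 8.

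Of the 10 members, 2 passed an adjusted p of 0.05 in the LDH knockout by edgeR, beside 2.49% of all 13321 tested genes. Hspb8 was lower (as were 1.07% of genes) and Cryab higher (as were 1.43%). No member passed in the Acly knockout, where 0.136% of 13973 genes passed, 0.0573% higher and 0.0787% lower. The members had a median log2 fold change of -0.13 in the LDH and -0.03 in the Acly comparison, where the medians over every tested gene were 0.01 and -0.00. By unadjusted p under 0.05 the members counted 5 in the LDH and 0 in the Acly comparison, beside 19.6% and 15.8% of all genes. DESeq2 called 3 members in the first, beside 7.03% of all genes (903), and 0 in the second, beside 1.84% (253).

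Hspb8, the small heat shock protein that works with Bag3, fell to 0.506 of its control level in the LDH knockout. It was at 25.1, 25.2 and 26.8 CPM in knockout replicates 1 to 3 and at 61.9, 42.3 and 48.1 CPM in control replicates 1 to 3. All 3 knockouts were below all 3 controls, and the knockouts differed little among themselves. This is -0.98 on the log2 scale (standard error 0.13), and edgeR gave an adjusted p of 0.00754, rank 39 among the tested genes. The call held with each of the 6 samples left out in turn (-1.10 to -0.81). It was lost with Y-linked signal as a covariate (-0.87, adjusted p 0.284), a fit in which 3 genes in all passed. LDH control replicate 3, with little Y-linked RNA as in the knockouts, was at 48.1 CPM, above all 3 of them. With 1 such control no test within that class was possible.

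Markers of other cell types moved in the same comparison. The summed level of 8 adipocyte markers was 18.7 to 66.5 CPM in LDH knockouts and 2.65 to 4.35 CPM in controls, and 6 of the 6 tested rose (Plin1, Plin4, Cfd, Fabp4, Cidec and Adipoq). The 7 osteoblast markers summed to 46.0 to 61.2 CPM in knockouts and 83.0 to 99.0 CPM in controls, with Sp7, an osteoblast transcription factor, lower (log2 fold change -1.22) and Dmp1 at 0 in all 3 knockouts and at most 0.0351 CPM in controls. The 8 chondrocyte markers summed to 18104 to 27420 against 9967 to 11538 CPM, and Acan, Matn3, Col2a1, Col9a1 and Col11a2 passed, all higher. In the 6 fits that each left out 1 sample, Adipoq passed in 1, Col11a2 in 2 and Sp7 in 3. The other adipocyte and chondrocyte markers named here passed in 5 or 6. The part of these 3 shifts in the Hspb8 and Cryab results was not tested. In the Acly set the chondrocyte markers summed to 14171 to 17042 CPM in knockouts and 8427 to 9210 CPM in controls. There Col2a1 (log2 fold change 1.05) and Comp (1.03) passed, higher, but only in 2 and 3 of the 6 fits with 1 sample left out. Osteoblast markers summed to 159 to 190 CPM in Acly knockouts and 200 to 221 CPM in controls. Adipocyte markers overlapped, at 37.4 to 67.4 and 17.9 to 48.8 CPM. The 12 skeletal muscle markers, none at 0 in a whole group, overlapped between LDH groups at 11.8 to 20.9 and 10.98 to 20.1 CPM, although Tnnt3 and Tnni2 passed, higher. Each of these calls held in 1 of the 6 fits with 1 sample left out. The 8 smooth muscle and pericyte markers overlapped too, at 288 to 379 and 344 to 375 CPM.

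In the Acly knockout Hspb8 was at 78.6, 82.1 and 77.4 CPM in knockouts and 79.4, 62.5 and 61.2 CPM in controls. The groups overlapped through control replicate 1, and the log2 fold change of 0.23 (standard error 0.11) did not pass, with an adjusted p of 0.352 by edgeR. The difference between both effects, tested as an interaction in all 12 samples, was -1.19 (standard error 0.19), for which edgeR gave an adjusted p of 0.0276. Hspb8 was rank 10 by p in that test and the 1 member among the 23 genes (0.161% of 14251, 0.0702% lower and 0.0912% higher) that passed. At unadjusted p under 0.05 it was also the 1 member, beside 13% of all genes. Gene deleted, age and line cannot be told apart in it. The Y-linked covariate, with which the LDH call of Hspb8 was lost, was not fitted for this difference. Y-linked RNA was at 0.0755, 74.3 and 82.8 CPM in Acly knockouts and 0.375, 121 and 2.83 CPM in Acly controls. The call of the difference was lost without LDH knockout replicate 1 or 2 (adjusted p 0.0772 and 0.0879 by edgeR). It was also lost without Acly control replicate 2 or 3 (0.0919 and 0.115), with estimates of -1.18 to -1.13 in these 4 fits. No other member passed, with estimates from -0.20 for Bag3 to 0.53 for Hspb1. The sum of Hspa1a and Hspa1b had 0.50 (adjusted p 0.589 by edgeR).

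**Figure D2:**
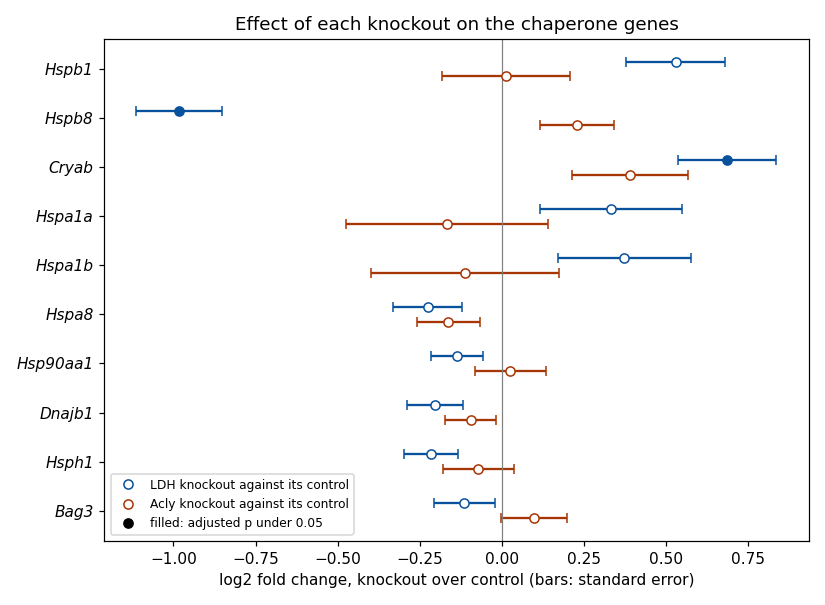
Log2 fold change of each knockout over its own control (horizontal axis) for the 10 genes, with standard errors as bars. Blue marks the LDH and red the Acly comparison. Filled points, Hspb8 at -0.98 and Cryab at 0.69 in the LDH comparison, passed an adjusted p of 0.05.

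Bag3, the partner of Hspb8, did not pass in either knockout. It was at 249.6, 211 and 246 CPM in LDH knockouts and 252, 241 and 272 CPM in their controls, with groups that overlap in CPM and a log2 fold change of -0.12 (standard error 0.09, adjusted p 0.532 by edgeR). In the Acly set it was at 206, 242 and 236 CPM against 234, 205 and 201 CPM, a log2 fold change of 0.10 (adjusted p 0.627). By TPM all LDH knockouts (150.4 to 183.9) lay below all LDH controls (186.1 to 192.2). The level of Hspb8 relative to Bag3 within a sample, which no library scaling can alter, was computed after these values had been seen. Hspb8 was 14.5%, 17.3% and 15.8% of Bag3 by TPM in LDH knockouts and 35.6%, 25.5% and 25.6% in their controls. The knockout mean of 15.9% was 0.550 of the control mean of 28.9% (exact permutation p 0.1, two-sided, the smallest that 3 against 3 samples allow). In the Acly set the ratio was 55.2%, 49.0% and 47.5% in knockouts and 49.1%, 44.2% and 44.1% in controls, which overlap (exact permutation p 0.3, two-sided).

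**Figure D3:**
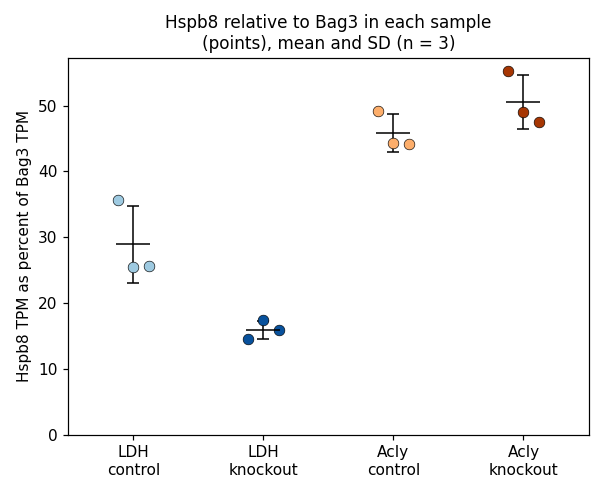
Hspb8 TPM as a percent of Bag3 TPM in the same sample (vertical axis from 0) for the 4 groups. Points are samples, and bars are the mean and SD (n = 3). The LDH knockouts, at 14.5% to 17.3%, lie below the LDH controls, at 25.5% to 35.6%, and both Acly groups lie at 44.1% to 55.2%.

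Cryab, the gene for alpha-B crystallin, rose in the LDH knockout while Hspb8 fell. It was at 14.5, 16.1 and 16.1 CPM in knockouts and 11.8, 8.87 and 8.26 CPM in controls, so that all 3 knockouts exceeded all 3 controls. On the log2 scale the rise was 0.69 (standard error 0.15), and edgeR gave an adjusted p of 0.0469, close to the threshold. Over 9 alternatives the estimate lay between 0.64 and 1.03 with adjusted p from 0.0018 to 0.284, and 4 of the 9 passed. The call was lost without knockout replicate 1 or 2 (adjusted p 0.12 and 0.146) and without control replicate 2 or 3 (0.142 and 0.109).

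In the Acly knockout Cryab was at 33.2, 35.9 and 53.7 CPM against 34.4, 29.5 and 29.8 CPM in controls. Replicate 3 was high, replicate 1 lay within the control range, and the summed skeletal muscle markers were also highest in replicate 3 (263 CPM, against 201 and 99.6 CPM in replicates 1 and 2 and 238 to 325 CPM in controls). The part of these markers in the Cryab values was not tested. The log2 fold change of 0.39 (standard error 0.18) did not pass, with an adjusted p of 0.324, and without knockout replicate 3 it was 0.14.

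Hspb1 encodes HSP27, also called HSP25 in mouse. In LDH knockouts it was at 10.1, 10.7 and 8.59 CPM, and in controls at 7.51, 5.90 and 6.98 CPM. The groups did not overlap, but the log2 fold change of 0.53 (standard error 0.15) missed the threshold with an adjusted p of 0.0964 by edgeR. DESeq2 gave 0.52 with an adjusted p of 0.0482. In the Acly set it was at 27.2, 21.0 and 36.0 CPM in knockouts and 28.8, 31.6 and 23.1 CPM in controls. That estimate, 0.01 (standard error 0.19, adjusted p 0.977), turns negative without TMM scaling (-0.03).

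Hspb1 and Cryab were thus the 2 members higher, and Hspb8, Hsp90aa1, Dnajb1 and Hsph1 the 4 lower, in all LDH knockouts than in all controls by TMM-scaled CPM. Across the transcriptome 24.3% of genes did not overlap, 11.9% with higher and 12.5% with lower knockouts. Of the 4, only Hspb8 passed the test. In the Acly comparison 1 of the 10 members, Dnajb1, did not overlap and was lower, against 22% of all genes (10.7% higher and 11.3% lower). By TPM, a unit compared after these values had been seen, Hspa8 and Bag3 were lower in all LDH knockouts too, making 6 lower (11.8% of all genes) and 2 higher (11%). Hspa8 also joined Dnajb1 in the Acly comparison, making 2 lower (13.8% of all genes) and 0 higher (6.93%).

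The HSP70 genes did not pass in either knockout. Hspa8 was at 2449, 2131 and 2450 CPM in LDH knockouts and 2851, 2410 and 2959 CPM in controls, overlapping through control replicate 2, with a log2 fold change of -0.23 (standard error 0.11, adjusted p 0.274 by edgeR). In the Acly set it was at 2426, 2336 and 2085 CPM in knockouts and 2620, 2409 and 2642 CPM in controls, with -0.16 (adjusted p 0.407). These groups overlapped as well, through knockout replicate 1 and control replicate 2.

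Hspa1a had log2 fold changes of 0.33 (standard error 0.22) in the LDH and -0.17 (0.31) in the Acly comparison, and Hspa1b of 0.37 (0.20) and -0.11 (0.29). Their summed counts gave 0.36 (adjusted p 0.352 by edgeR) and -0.13 (adjusted p 0.825). Leaving out 1 sample gave LDH estimates of 0.057 to 0.48 for Hspa1a and of 0.086 to 0.52 for Hspa1b, both lowest without knockout replicate 1. The sum was 47.5, 27.5 and 29.8 CPM in LDH knockouts against 30.3, 22.5 and 29.0 CPM in controls. Knockout replicate 1 was the highest, and the other samples were mixed. In Acly knockouts it was 18.4, 16.1 and 26.7 CPM, within the range of their controls. Hspa1a took 30.2% to 38.4% of the summed counts in every sample.

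Among the members, Hsp90aa1, Dnajb1 and Hsph1 had small negative estimates in the LDH knockout. Hsp90aa1 was at 767, 754 and 809 CPM against 823, 868 and 870 CPM (log2 fold change -0.14, standard error 0.08, adjusted p 0.384 by edgeR). Dnajb1 was at 42.3, 43.4 and 45.0 CPM against 49.5, 46.2 and 54.8 CPM (-0.20, standard error 0.08, adjusted p 0.221). Hsph1 was at 107, 105 and 124 CPM against 128, 129.8 and 132 CPM (-0.22, standard error 0.08, adjusted p 0.182), and it passed without knockout replicate 3 (adjusted p 0.0473). For each of these 3 genes every knockout lay below every control, but none passed with all 6 samples.

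In the Acly knockout their log2 fold changes were 0.02, -0.10 and -0.07 with adjusted p of 0.919, 0.541 and 0.749. Dnajb1 lay at 47.0, 47.7 and 48.3 CPM in knockouts, below the 52.4, 49.96 and 50.4 CPM of controls. Hsp90aa1 spanned 667 to 818 CPM in knockouts and 693 to 804 CPM in controls, and Hsph1 87.7 to 112 and 100.003 to 104 CPM, so both overlapped. The sign for Hsp90aa1 turns without TMM scaling (-0.02).

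The rest of the chaperone network was read from 8 further lists. Of their 66 written genes, 61 were tested in the LDH and 62 in the Acly comparison. By edgeR 0 passed in either, beside 2.49% and 0.136% of all genes. DESeq2 called 3 of them, beside 7.03% of all genes in the LDH and 1.84% in the Acly comparison. These were Dnaja3 (-0.27, adjusted p 0.0237) and Cct5, a TRiC subunit (0.27, adjusted p 0.0395), in the LDH and Bag2 (0.42, adjusted p 0.0433) in the Acly comparison. Among heat shock factors, Hsf1, the main activator of the heat response, had log2 fold changes of 0.21 (adjusted p 0.169) and 0.19 (adjusted p 0.357) in the LDH and Acly comparison, and Hsf4 of -0.71 (0.15) and 0.52 (0.41). Hsf1 was higher in all LDH knockouts than in all controls (111.9 to 117.8 against 94.3 to 107.3 CPM), as were 11.9% of all genes. The same held narrowly in the Acly set (133.5 to 154.8 against 119.5 to 133.4 CPM), beside 10.7%. Hsf4 was lower in all LDH knockouts, beside 12.5%, and overlapped in the Acly set. No heat shock factor passed.

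Of the other small heat shock proteins, Hspb6 was the most abundant, at 232 ± 25.8 TPM in LDH controls and 184 ± 11.6 TPM in LDH knockouts. In CPM the LDH groups did not overlap. Its log2 fold change of -0.30 had an adjusted p of 0.122 by edgeR. In the Acly set it was at 396 ± 11.5 TPM in controls and 427 ± 56.0 TPM in knockouts (log2 fold change 0.22, adjusted p 0.444). Next by p in this list were Hspb11 (-0.06, adjusted p 0.826) in the LDH and Hspb2 (-0.47, adjusted p 0.443) in the Acly comparison.

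Among 10 other J-domain genes, 10 had negative log2 fold changes in the LDH comparison (-0.24 to -0.01, median -0.13) and 0 passed. Of all 13321 tested genes, 6529 were negative. The knockouts lay below all controls for 4 of the 10, against 12.5% of all genes. This was not particular to the J-domain list, as it held for 5 of 9 mitochondrial chaperones, with 1 higher. Dnaja4 (-0.24, adjusted p 0.181) and Dnajb6 (-0.20, adjusted p 0.152) had the lowest p. In the Acly comparison 8 of the 10 J-domain genes were negative, with a median of -0.04, beside 7029 of all 13973 tested genes.

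Medians in the LDH comparison were -0.04 over 6 further HSP70 and HSP110 genes, 0.05 over 12 genes of the HSP90 system, -0.01 over 9 HSP70 co-chaperones, 0.04 over the 8 subunits of the chaperonin TRiC and -0.08 over 9 mitochondrial chaperones. In the Acly comparison they were -0.05, 0.12, 0.14, 0.00 and 0.01. Fkbp5, an HSP90 co-chaperone, had the lowest p of its list in the LDH comparison (0.35, adjusted p 0.124 by edgeR), as had Dnaja3, a mitochondrial J-domain protein (-0.26, adjusted p 0.0813). In the Acly comparison Bag2, a relative of Bag3, had 0.41 (adjusted p 0.179). By unadjusted p under 0.05, the 8 lists counted 12 of 61 genes (19.7%) in the LDH and 7 of 62 (11.3%) in the Acly comparison, beside 19.6% and 15.8% of all genes.

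**Figure D4:**
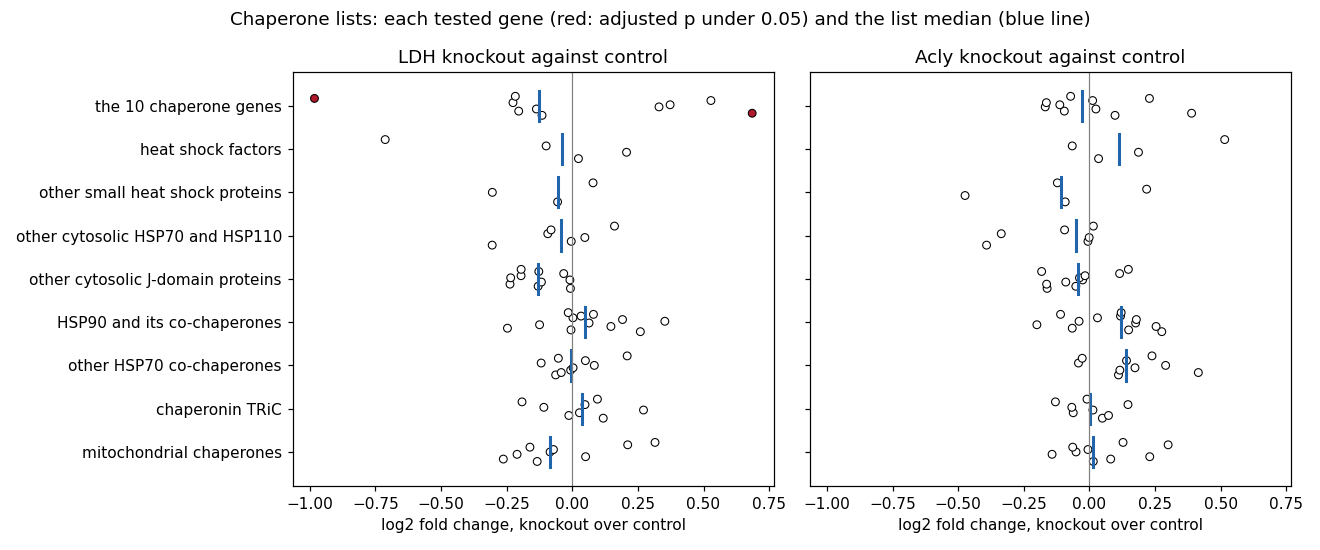
Log2 fold change of each tested gene of the 10 members and the 8 further chaperone lists, knockout over its own control, for the LDH and the Acly comparison. Points are genes and the vertical marks are list medians. In the LDH comparison Hspb8 (-0.98) and Cryab (0.69) are the only points past the threshold by edgeR among the genes shown.

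The control groups differed at more members than either knockout. Acly controls at E18.5 and LDH controls at P5 come from different lines, so age and line cannot be told apart. By edgeR 6 of the 10 members passed, beside 55% of all 14251 tested genes, so that a count of this size stands near the background. Of these, 2 were higher in Acly controls and 4 lower, beside 29.4% and 25.7% of genes. At unadjusted p under 0.05 the members counted 6, beside 60.2%. Hspb1 was 3.67-fold higher in Acly controls (log2 fold change 1.88, standard error 0.19, adjusted p 5.04e-06) and Cryab 2.90-fold (1.54, standard error 0.18, adjusted p 1.46e-05). In TPM, Hspb1 was at 52.8 to 75.1 in Acly controls and 13.9 to 17.4 in LDH controls, and Cryab at 63.6 to 70.8 and 16.4 to 25.5, without overlap.

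Hsph1 (-0.51), Bag3 (-0.41), Hsp90aa1 (-0.37) and Hspa8 (-0.25) passed with lower levels in Acly controls (adjusted p 0.000731, 0.00244, 0.00323 and 0.0413). These smaller differences depend on the scaling. Without TMM the median over every tested gene moved on the log2 scale from 0.02 to 0.19, and the share of calls that were higher in Acly controls from 53.3% to 72.4%. On that scale Hsph1 (-0.34) and Bag3 (-0.24) still passed, Hsp90aa1 (-0.20) and Hspa8 (-0.08) did not, and Hspb8 passed as higher (0.43). With TMM scaling Hspb8 had 0.26 with an adjusted p of 0.106. The sum of Hspa1a and Hspa1b had -0.44 with an adjusted p of 0.191.

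Hspb1 and Cryab are abundant in muscle, and muscle markers differed between the same controls. With TMM scaling Bag3, whose pathway with Hspb8 is best studied in muscle, was lower in Acly controls (log2 fold change -0.41, adjusted p 0.00244 by edgeR). Hspb8 did not pass on that scale (0.26, adjusted p 0.106) but passed as higher without TMM (0.43). All 12 skeletal muscle markers were higher in Acly controls, with a median log2 fold change of 4.41, and the summed level was 238 to 325 CPM there against 10.98 to 20.1 CPM in LDH controls, each scaled within its own set. Of 7 tested smooth muscle and pericyte markers 5 were higher and 1 lower, and 6 of 6 endothelial markers were higher. The shift was not limited to these types. Of 7 tested adipocyte markers 6 were higher and 0 lower, and of 7 macrophage markers 6 were higher and 1 lower. Of 6 tested osteoblast markers 5 were higher and 0 lower, and of 8 chondrocyte markers 5 were higher and 1 lower. Hspb2, the neighbour that overlaps Cryab, was at 5.38 TPM in Acly and 0.283 TPM in LDH controls. The part of these differences in the Hspb1 and Cryab values was not tested.

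**Figure D5:**
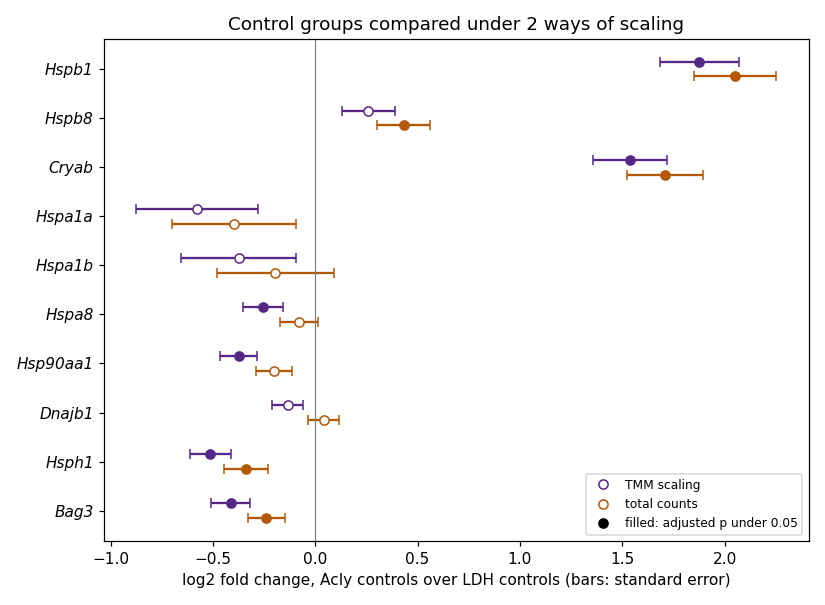
Log2 fold change of Acly controls over LDH controls for the 10 genes with TMM scaling and with total counts alone, with standard errors as bars. Hspb1 (1.88 and 2.05) and Cryab (1.54 and 1.71) lie far to the right on both scales, while Dnajb1 changes sign (-0.13 and 0.04).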

How the data were processed

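RNA-seq of 12 samples (4 groups of 3) was used. The authors deposited, per the file headers, expected counts per gene beside FPKM and TPM values for 17922 genes. Per the submitters' processing notes HISAT2 2.0.4 and mm9 were used; the counting tool, annotation and use of strand are not given in the sources used here. The deposited expected counts (7.32% to 8.16% not whole) were rounded.

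Knockouts were tested against their littermate controls with 6 samples per fit, and the difference of effects and the control groups in a fit of 12, by edgeR 4.0.16 (quasi-likelihood test, TMM scaling, filterByExpr, Benjamini-Hochberg adjustment over all tested genes, threshold 0.05) in R 4.3.3. CPM are TMM-scaled within a set, except Y-linked levels, which use total counts. The deposited TPM served for levels between genes, and the deposited FPKM, as log2(FPKM + 1), for limma 3.58.1. DESeq2 1.42.0, other scalings, no filter, a replicate block, a Y-linked covariate and leaving out each sample were alternatives. The Y-linked covariate was fitted for each knockout comparison only. The scripts were tested on simulated data. Every member was described, and from each chaperone list the 2 genes with the lowest p per knockout comparison, and any list gene past the threshold, could be named. Members and lists were chosen with earlier results of these data known. Sequences came from the RefSeq promoter table (GRCm38.p6), and overlaps of genes from GENCODE. Groups of 3 allow no exact permutation p under 0.1.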

Additional observations from a re-analysis of the deposited data

Results flagged for a closer look

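The estimated effect of the knockouts on Hspb8 differed between both lines. The LDH effect minus the Acly effect was -1.19 on the log2 scale, and this difference, tested directly as an interaction over 12 samples by edgeR, passed the threshold (adjusted p 0.0276). Hspb8 was lower than all controls in 3 of 3 LDH knockouts and overlapped its controls in the Acly knockout. It passed in 8 of 12 fits that each left out 1 sample, and was lost without LDH knockout replicate 1 or 2 or Acly control replicate 2 or 3 (adjusted p 0.0772 to 0.115 by edgeR). Groups of 3 were not tested for a single value far from the others. Y-linked RNA was low in all LDH knockouts and high in LDH control replicates 1 and 2. The Y-linked covariate was not fitted for this difference, so the part of that imbalance was not tested.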

How the results depend on the processing

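Numbers of called genes moved most. In the LDH comparison 332 became 903 with DESeq2 and 3 with the Y-linked covariate, and 95 to 1068 when 1 sample was left out. In the Acly comparison 19 became 31 with all 12 samples in the fit, 253 with DESeq2, 32 without a filter, 11 without TMM and 6 with the Y-linked covariate, and 0 to 132 with 1 sample left out. For the difference of effects 23 became 213 with DESeq2, and 5 to 143 with 1 sample left out. The 2 members called in the LDH comparison became 1 with all 12 samples, with log2(FPKM + 1) and without TMM, 0 with the covariate (3 at unadjusted p under 0.05), and 1 to 4 with 1 sample left out. The 1 member of the difference became 0 to 1 with 1 sample left out. The share of higher calls in the Acly comparison was 42.1% with TMM and 27.3% without.

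Replicate numbers did not pair samples (correlations of deviations 0.0642, -0.175 and 0.00288 in the LDH and -0.0996, -0.289 and -0.286 in the Acly set). With the replicate block, called genes were 362 in the LDH comparison, 8 in the Acly comparison and 5 for the difference, called members 1 and 0 in the LDH comparison and the difference, and Hspb1 in the Acly comparison -0.0099. The block also ended the call of the Hspb8 difference (-1.19, adjusted p 0.126 by edgeR).

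Some estimates near 0 changed sign, and none passed the threshold with its sign changed. With the covariate, in the LDH comparison, Acly was 0.019, Hspb11 0.13 and Stub1 -0.11. In the Acly comparison, without TMM and with log2(FPKM + 1) and log2(FPKM + 0.1), Hsp90aa1 was -0.022, -0.028 and -0.029, and Hspb1 -0.032, -0.064 and -0.066. Between controls Dnajb1 was 0.0410, 0.0410 and 0.0432 in these settings. With 1 sample left out, ranges crossing 0 in the Acly comparison were -0.046 to 0.10 for Hsp90aa1, -0.45 to 0.17 for Hspa1a, -0.39 to 0.12 for Hspa1b, -0.21 to 0.18 for Hspb1 and -0.15 to 0.0096 for Ldha. Others were -0.16 to 0.021 (Hspa8) and -0.21 to 0.0018 (Hsph1) for the difference, -0.11 to 0.00067 for Hspb11 in the LDH comparison, and -0.031 to 0.13 for Ldha between controls. Between controls Dnajb1 passed without LDH control replicate 2 (-0.23, adjusted p 0.0329 by edgeR), and Ldha passed without TMM and with both FPKM settings (0.24, adjusted p 0.0346 to 0.0389). The cause was not tested.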

Other observations

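Immediate early genes, which respond within minutes to handling of cells, were measured as a further list. Of 11 tested, 0 passed in the LDH and 0 in the Acly comparison by edgeR (1 and 2 at unadjusted p under 0.05), with median log2 fold changes of 0.00 and 0.01. Their summed level was 1365 to 1588 CPM in LDH knockouts and 1229 to 1559 CPM in LDH controls, which overlap.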
